A study of Mus musculus with 24 samples.

Results

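Cxcl9, Cxcl10 and Cxcl11, the ligands of the chemokine receptor CXCR3, and Cxcl16, the ligand of CXCR6, were examined in mouse bone marrow-derived macrophages of 4 Il10-/- strains with and without flagellin. The members were all probe sets whose annotation gives only 1 of these 4 gene symbols, which gave 7 of the 45033 probe sets with values. Cxcl9 is represented by 1418652_at and 1456907_at, Cxcl10 by 1418930_at, Cxcl11 by 1419697_at and 1419698_at, and Cxcl16 by 1418718_at and 1449195_s_at.

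CXCL9, CXCL10 and CXCL11 attract activated T cells and NK cells, which carry CXCR3. In macrophages, Cxcl9 is a classic target of interferon gamma, whereas Cxcl10 and Cxcl11 are also induced by type I interferon and, for Cxcl10, by NF-kB downstream of Toll-like receptors. CXCL16 differs from these in being made as a transmembrane protein on macrophages and dendritic cells. Its soluble form is shed by the metalloproteases ADAM10 and ADAM17 and attracts CXCR6-bearing T cells, and its anchored form also serves as a scavenger receptor. The C57BL/6 allele of Cxcl11 is known to carry a frameshift, so the gene is transcribed in that strain without giving a functional protein, and RefSeq lists it as a transcribed pseudogene.

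All 24 arrays came from male mice that lack Il10 (the Il10tm1Cgn allele), so no group had interleukin-10, the cytokine that restrains macrophage activation. CB-R1 (C3Bir.B6-Cdcs1 Il10-/-) has the C3Bir background with a long chromosome 3 segment from B6 that spans the colitis locus Cdcs1, and was set against C3Bir (C3Bir-Il10-/-, C3H/HeJBir-Il10tm1Cgn), the colitis-susceptible parent. BC-R3 (B6.C3Bir-Cdcs1 Il10-/-) carries the Cdcs1 region of C3Bir on a B6 background. Both BC-R3 and C3Bir were set against B6 (B6-Il10-/-, C57BL/6J-Il10tm1Cgn), the colitis-resistant parent. Marrow cells were cultured for 6 days in RPMI1640 with serum and then given Cbir1 flagellin, a bacterial antigen and Toll-like receptor 5 ligand, at 1 µg/mL for 4 h, or left unstimulated. Each of the 8 groups has 3 arrays, and 3 wells were pooled for each RNA. The labels name 3 mice per genotype and triplicate experiments but do not tie an array to a mouse, so a p-value weighs a difference against the spread of such arrays, which may be partly technical. The number of arrays limits the precision of every value.

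Signals are log2 values as deposited. Array medians lay between 6.55 and 6.64, lower quartiles between 5.29 and 5.42, and the correlation of arrays within a group between 0.987 and 0.998. The 10 macrophage markers measured were above the array's lower quartile on every array, with a mean between 11.08 and 11.63. The neutrophil genes S100a8, S100a9 and Ngp were also high on every array, from 12.59 to 14.11, and the mean of 7 neutrophil markers was highest in CB-R1, at 12.65 to 12.87. The part of these cells in any result was not tested. The mean of 10 T and NK cell markers stayed between 6.43 and 6.75. Of these 10, 8 were above the lower quartile on every array, and only 1, Cd3g, was below it on all 24 arrays. Unstimulated arrays 2 and 3 of C3Bir and of B6, called here the 4 high arrays, ranked highest on 1 gene list. Their mean over 20 NF-kB and inflammatory genes was 10.62 and 10.54 in C3Bir and 11.89 and 11.94 in B6, while unstimulated array 1 had 8.62 in C3Bir and 10.08 in B6. Unstimulated BC-R3 array 1, at 10.20, came close to the high C3Bir arrays, so the line between them is not sharp. Calls of members that rest on these arrays are therefore given with and without them, for the main ones with the size of the change. Other genes are followed by how their calls fared without them.

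In the RefSeq gene table of GRCm38.p6, Cxcl9, Art3, Cxcl10 and Cxcl11 follow each other on chromosome 5, and Cxcl16 lies on chromosome 11. None of the members lies on chromosome 3, which carries Cdcs1. The promoters of Cxcl9 and Cxcl10, the members with the largest changes, are shown because their known inducers act there. The windows run from 250 bases before the start to 50 bases from it, on the minus strand, at chr5:92328030-92328329 for Cxcl9 and chr5:92348840-92349139 for Cxcl10. Sequences are RefSeq's in GRCm38.p6, 5' to 3', with capitals marking the motif matches described after them.
Cxcl9: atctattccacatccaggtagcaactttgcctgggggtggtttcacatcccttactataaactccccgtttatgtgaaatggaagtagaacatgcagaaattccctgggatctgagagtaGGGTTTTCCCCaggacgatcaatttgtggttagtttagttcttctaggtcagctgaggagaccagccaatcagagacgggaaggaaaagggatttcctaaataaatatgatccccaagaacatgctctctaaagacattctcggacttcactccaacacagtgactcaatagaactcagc
Cxcl10: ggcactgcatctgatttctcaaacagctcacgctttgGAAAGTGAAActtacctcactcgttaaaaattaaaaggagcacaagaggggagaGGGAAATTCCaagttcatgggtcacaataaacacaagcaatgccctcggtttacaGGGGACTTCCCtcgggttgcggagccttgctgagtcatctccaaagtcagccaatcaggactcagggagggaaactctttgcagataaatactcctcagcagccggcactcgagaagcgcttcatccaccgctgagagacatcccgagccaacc

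Searched on both strands were 3 motifs: the GAS element of interferon gamma targets (TTCNNNGAA), a core of the interferon-stimulated response element (GAAANNGAAA) and a core of the NF-kB site (GGGNNNNNCC). Of 32851 promoter windows of this length, 8.30% held the GAS, 3.44% the response element core and 50.8% the NF-kB core. The Cxcl9 window held overlapping NF-kB core matches between -130 and -120 from the start and no match to the others. The Cxcl10 window held the response element core at -213 to -204, and NF-kB core matches at -159 to -150 and, overlapping, between -104 and -94; it held no GAS match. The search describes letters in these windows only.

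Unstimulated B6 macrophages had the highest Cxcl9 and Cxcl10 signals of the 8 groups, and flagellin-treated B6 cells had much lower ones. Cxcl11 followed the same order within B6, and Cxcl16 differed little there. In CB-R1, C3Bir and BC-R3 no member passed the test for flagellin.

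**Figure D1:**
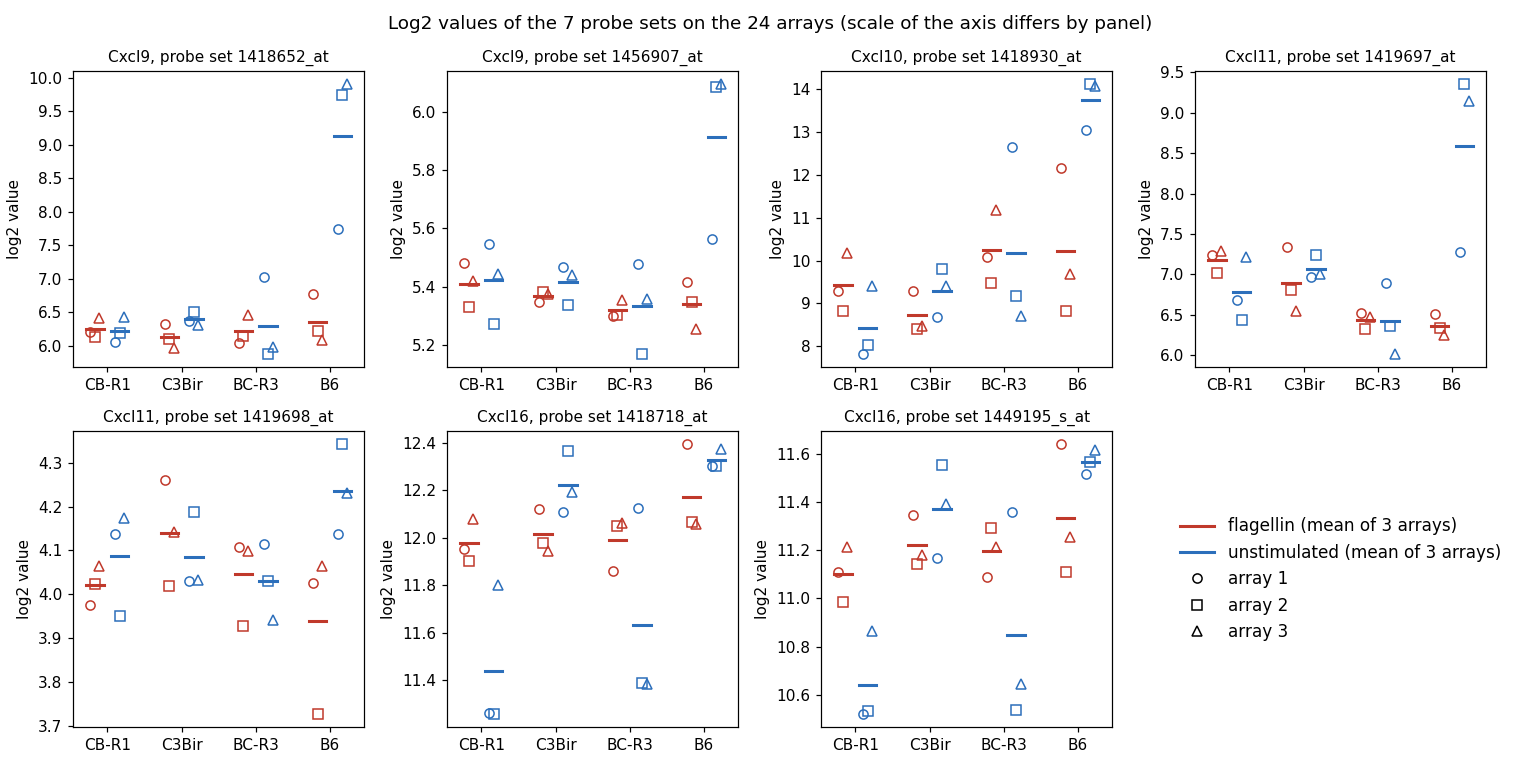
Log2 value of each of the 7 probe sets (y axis, own scale per panel) on every array, by strain, with flagellin in red left of unstimulated in blue. Points are arrays, marked by array number, and bars are means of 3 arrays; for Cxcl9 and Cxcl10 the 3 unstimulated B6 arrays lie above all others.

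Cxcl9, probe set 1418652_at, read 6.77, 6.23 and 6.09 on the flagellin-treated B6 arrays, against 7.74, 9.74 and 9.91 on the unstimulated B6 arrays. The groups do not overlap, and unstimulated array 1 lies well below the other two unstimulated arrays. The change was -2.77 ± 0.38 (SE), 6.81-fold lower with flagellin, with an adjusted p of 0.00234 from limma over all probe sets. Probe set 1456907_at of Cxcl9 is dim, below the lower quartile on 10 of 24 arrays, so it is given as a difference in signal only. It read 5.42, 5.35 and 5.26 with flagellin against 5.57, 6.08 and 6.09 without, a difference of -0.57 ± 0.11 (adjusted p 0.00374 from limma).

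Cxcl10, measured by 1418930_at, read 12.15, 8.84 and 9.69 on the flagellin-treated B6 arrays and 13.03, 14.10 and 14.06 on the unstimulated B6 arrays. Array 1 was the highest of the treated arrays and the lowest of the unstimulated ones, and the groups do not overlap. The change was -3.51 ± 0.84 (SE), 11.4-fold lower with flagellin (limma adjusted p 0.0100). Leaving out unstimulated B6 array 2 or 3 lost this call, with a highest adjusted p of 0.0569.

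Cxcl11, by 1419697_at, read 6.51, 6.33 and 6.25 in flagellin-treated B6 cells, against 7.28, 9.35 and 9.15 in unstimulated ones. Arrays 2 and 3 again carried the high signal without flagellin. The change was -2.23 ± 0.36 (SE), 4.69-fold lower with flagellin (limma adjusted p 0.00246). The other Cxcl11 probe set, 1419698_at, lay between 3.73 and 4.34 and below the lower quartile on all 24 arrays, and its difference was -0.30 ± 0.09 (limma adjusted p 0.0320). That call was lost with quantile normalization, with median centring and with a fixed replicate block. It was also lost in 3 of 24 cases when 1 array was left out.

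Cxcl16, by 1418718_at, read 12.39, 12.06 and 12.06 in flagellin-treated B6 cells and 12.30, 12.30 and 12.37 in unstimulated B6 cells. These ranges overlap. The difference was -0.15 ± 0.16, with a 95% interval from -0.49 to 0.18 (limma adjusted p 0.52). The second probe set, 1449195_s_at, gave -0.23 ± 0.17 with an interval from -0.58 to 0.11 (limma adjusted p 0.33).

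In B6 therefore 5 of the 7 member probe sets were lower with flagellin at an adjusted p under 0.05, and none higher, while 17.2% of all probe sets were called and 7.94% were lower. The arrays of both groups did not overlap for the same 5 members, against 26.4% of all probe sets. The mean of 9 dendritic cell markers was 7.56 to 7.58 in flagellin-treated B6 and 7.64 to 7.89 in unstimulated B6, with 1 of the 9 called lower, and its part in the chemokine changes was not tested. In bulk RNA, fewer cells that make a chemokine and less of its RNA per cell cannot be told apart. In B6, 0 of 7 members and 0% of probe sets were called without the 4 high arrays. A single unstimulated B6 array then remained, assumed to vary like the other groups. Cxcl9 then changed by -1.38 ± 0.34 (adjusted p 0.72), Cxcl10 by -2.81 ± 1.26 (0.735) and Cxcl11 by -0.91 ± 0.31 (0.724), all from limma. The fit of the B6 arrays alone also called none of the members, with an adjusted p of 0.136 for Cxcl9, Cxcl10 and Cxcl11 (limma).

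The high signal of unstimulated B6 also set it apart from every other group. The highest Cxcl9 value by 1418652_at among the other 21 arrays was 7.03, on unstimulated BC-R3 array 1, against a lowest of 7.74 in unstimulated B6. For Cxcl10 that same BC-R3 array had the highest of the other values, 12.64, and the lowest unstimulated B6 value was 13.03. The dim Cxcl9 probe set separated only narrowly, with a highest other value of 5.55 against 5.57. Of all probe sets, 1.66% had their 3 highest arrays in unstimulated B6. Cxcl11 and Cxcl16 did not share this. Flagellin-treated C3Bir reached 7.34 for Cxcl11, above the lowest unstimulated B6 value of 7.28, and flagellin-treated B6 reached 12.39 for Cxcl16, above the lowest unstimulated B6 value of 12.30.

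Ordered by mean, Cxcl10 stood at 13.73 ± 0.61 (SD, n = 3) in unstimulated B6, then at 10.25 in flagellin-treated BC-R3, 10.22 in flagellin-treated B6, 10.17 in unstimulated BC-R3, 9.43 in flagellin-treated CB-R1, 9.30 in unstimulated C3Bir, 8.72 in flagellin-treated C3Bir and 8.42 in unstimulated CB-R1. Below the first, the array ranges of each pair of neighbours in this order overlapped. The spread was wide in several groups, with an SD of 2.15 in unstimulated BC-R3 and 1.72 in flagellin-treated B6. Cxcl9 means below unstimulated B6 (9.13 ± 1.20, SD, n = 3) lay within 6.13 to 6.40, with overlapping neighbours throughout. For Cxcl11 by 1419697_at the order was unstimulated B6 (8.59 ± 1.14, SD, n = 3), flagellin-treated CB-R1 at 7.18, unstimulated C3Bir at 7.07, flagellin-treated C3Bir at 6.90, unstimulated CB-R1 at 6.78, flagellin-treated BC-R3 at 6.44, unstimulated BC-R3 at 6.42 and flagellin-treated B6 at 6.36. Every neighbouring pair in the Cxcl11 order overlapped, the first pair included.

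The question for the other strains was whether flagellin moved the chemokines there. In C3Bir, BC-R3 and CB-R1 limma called 0 of 7 members and 0% of probe sets. An unadjusted p under 0.05 was found for 3404, 4024 and 1436 of the 45033 probe sets. The CB-R1 number is below the share of 0.05 expected without any change, and the other numbers are above it.

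**Figure D2:**
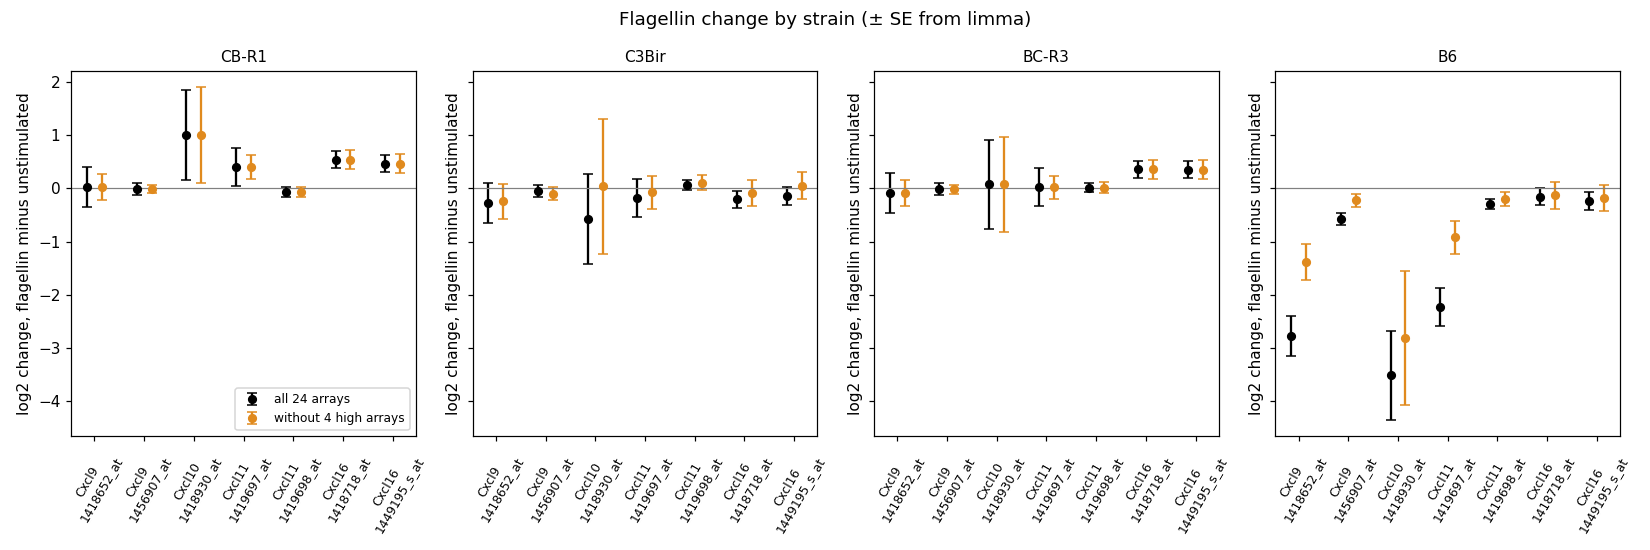
Change of each probe set with flagellin (y axis, log2 units, ± SE from limma) in each strain, with all 24 arrays in black and without the 4 high arrays in orange. In B6, Cxcl9, Cxcl10 and Cxcl11 lie well below 0 with all arrays and nearer to it without the 4 high arrays; in CB-R1, Cxcl10 and Cxcl16 lie above 0.

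In CB-R1, Cxcl16 by 1418718_at read 11.95, 11.90 and 12.08 with flagellin and 11.26, 11.26 and 11.80 without. The arrays did not overlap, as for 11.2% of probe sets in that comparison, and the same held for 1449195_s_at, which read 11.11, 10.99 and 11.21 with flagellin and 10.52, 10.53 and 10.87 without. The differences were 0.54 ± 0.16 and 0.46 ± 0.17, with 95% intervals of 0.20 to 0.87 and 0.12 to 0.81, and did not pass the test (limma adjusted p 1 for both). Cxcl10 in CB-R1 read 9.29, 8.82 and 10.17 with flagellin and 7.83, 8.02 and 9.42 without, a difference of 1.00 ± 0.84 with an interval from -0.74 to 2.75 (limma adjusted p 1). The array with flagellin lay above the unstimulated array of its number in all 3 cases, by 1.45, 0.80 and 0.75, and by 0.69, 0.65 and 0.28 for Cxcl16 (1418718_at), but a fit with a replicate block called none of the members either. Cxcl9 in CB-R1 differed by 0.03 ± 0.38.

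In BC-R3, Cxcl16 by 1418718_at read 11.86, 12.05 and 12.06 with flagellin and 12.12, 11.39 and 11.38 without. Unstimulated array 1 was as high as the treated arrays, and the other two were lower. The difference was 0.36 ± 0.16 (limma adjusted p 0.51). Without unstimulated array 1 of C3Bir, BC-R3 and B6, both Cxcl16 probe sets were called higher with flagellin in BC-R3, each by 0.61. Adjusted p was 0.0198 for 1418718_at and 0.0155 for 1449195_s_at (limma). The share of all probe sets called in that fit was not counted, so whether Cxcl16 stands out there is not known. Other means moved too: the neutrophil marker mean was 11.73 to 11.84 with flagellin, against 12.01, 11.18 and 11.11 on the unstimulated BC-R3 arrays. The NF-kB and inflammatory mean was 9.31 to 9.82 with flagellin, against 10.20, 8.61 and 8.55 without, and the part of either in the Cxcl16 difference was not tested. The same unstimulated BC-R3 array stood out for Cxcl10, which read 10.07, 9.48 and 11.18 with flagellin and 12.64, 9.17 and 8.70 without. Cxcl10 in BC-R3 thus differed by 0.07 ± 0.84, with an interval from -1.67 to 1.82, a wide range.

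In C3Bir, Cxcl10 read 9.29, 8.40 and 8.48 with flagellin and 8.68, 9.79 and 9.42 without, a difference of -0.57 ± 0.84 with an interval from -2.32 to 1.17. Cxcl16 by 1418718_at read 12.12, 11.98 and 11.95 with flagellin and 12.11, 12.37 and 12.19 without (-0.21 ± 0.16, limma adjusted p 0.77). The sign of the Cxcl10 difference turned to 0.04 ± 1.26 without the 4 high arrays.

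Whether flagellin changed the members differently in a pair of strains was tested directly. For BC-R3 minus B6, 3 of 7 members differed, all with a higher (less negative) change in BC-R3, while 8.05% of probe sets were called and 3.31% in that direction. Cxcl9 differed by 2.68 ± 0.54 (limma adjusted p 0.0151), its dim probe set by 0.56 ± 0.15 (0.0357) and Cxcl11 by 2.25 ± 0.51 (0.0205), each from changes near 0 in BC-R3 and negative ones in B6. Cxcl10 differed by 3.58 ± 1.18, with an adjusted p of 0.062. None was called without the 4 high arrays, and Cxcl9 differed by 1.30 ± 0.41 (limma adjusted p 0.448). For C3Bir minus B6 no member was called, with Cxcl9 at 2.50 ± 0.54 and a limma adjusted p of 0.107. Without the 4 high arrays that Cxcl9 difference was 1.14 ± 0.48. With all arrays 0% of probe sets passed although 6254 had an unadjusted p under 0.05. For CB-R1 minus C3Bir no member was called either, with 0% of probe sets called. An unadjusted p under 0.05 was found for 2237, about the share of 0.05 expected without any change.

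Next, the strains were compared within each condition. Without flagellin, both C3Bir and BC-R3 had less Cxcl9, Cxcl10 and Cxcl11 signal than B6, and BC-R3 and CB-R1 had less Cxcl16 than their background strain. With flagellin no member passed the test in any strain pair. The comparisons against unstimulated B6 share its 3 arrays with each other and with the flagellin change in B6, so they are not independent of one another.

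**Figure D3:**
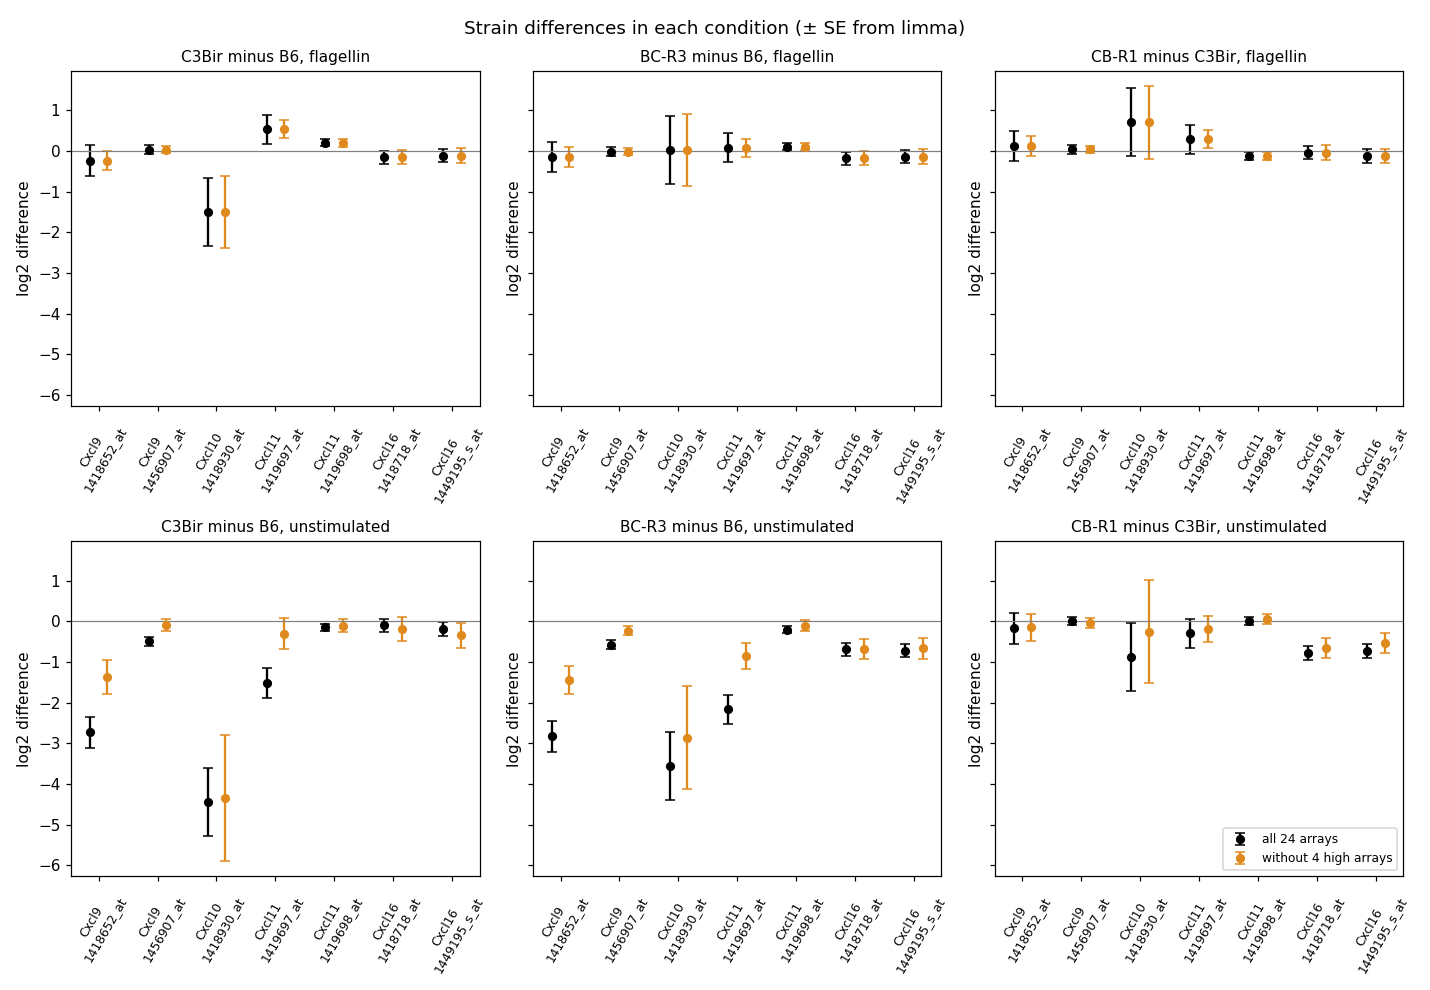
Difference of each probe set between strains (y axis, log2 units, ± SE from limma) with flagellin in the upper row and without it in the lower row; black with all 24 arrays, orange without the 4 high arrays. The differences that passed the test with all arrays lie in the lower row; in the upper row Cxcl10 for C3Bir minus B6, at -1.50, did not pass, and Cxcl16 lies below 0 for BC-R3 and CB-R1 in the lower row.

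In unstimulated C3Bir minus B6, 4 of 7 members were lower and none higher, while 13.4% of probe sets were called and 5.36% were lower. Cxcl9 by 1418652_at read 6.37, 6.51 and 6.32 in C3Bir, against 7.74, 9.74 and 9.91 in B6. Its difference was -2.73 ± 0.38, 6.64-fold lower in C3Bir (limma adjusted p 7.13e-05). Cxcl10 read 8.68, 9.79 and 9.42 in C3Bir, against 13.03, 14.10 and 14.06 in B6. That gap of -4.43 ± 0.84, 21.6-fold lower in C3Bir, had a limma adjusted p of 0.00137. Cxcl11 read 6.97, 7.24 and 7.01 in C3Bir, against 7.28, 9.35 and 9.15 in B6, which gave -1.52 ± 0.36, 2.87-fold lower (limma adjusted p 0.00725). The dim Cxcl9 probe set, also called, differed by -0.50 ± 0.11 (limma adjusted p 0.00421), and by -0.10 ± 0.14 without the 4 high arrays. Cxcl16 differed by -0.11 ± 0.16 (interval -0.44 to 0.23).

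Leaving out the 4 high arrays leaves 1 unstimulated array in C3Bir and 1 in B6, and then no member was called in this comparison and 0.995% of probe sets were. Cxcl10 then differed by -4.35 ± 1.55 (limma adjusted p 0.255), close to its value with all arrays. Cxcl9 differed by -1.37 ± 0.41 (0.154) and Cxcl11 by -0.31 ± 0.38 (0.884). Leaving out unstimulated B6 array 2 or 3 alone lost the Cxcl11 call, at an adjusted p of up to 0.0655.

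In unstimulated BC-R3 minus B6, 6 of 7 members were lower and none higher, against 26.5% of all probe sets called and 11.2% lower, so the background of change was high here. Cxcl9 read 7.03, 5.88 and 5.99 in BC-R3, against 7.74, 9.74 and 9.91 in B6 (-2.83 ± 0.38, 7.11-fold lower, limma adjusted p 0.000394). Cxcl10 read 12.64, 9.17 and 8.70 in BC-R3, against 13.03, 14.10 and 14.06 in B6 (-3.56 ± 0.84, 11.8-fold lower, 0.00502). Array 1 of BC-R3 came close to B6 for both genes. Cxcl11 read 6.89, 6.36 and 6.02 in BC-R3, against 7.28, 9.35 and 9.15 in B6 (-2.17 ± 0.36, 4.50-fold lower, 0.000814).

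Cxcl16 was called in this pair with both probe sets. By 1418718_at it read 12.12, 11.39 and 11.38 in BC-R3, against 12.30, 12.30 and 12.37 in B6, and by 1449195_s_at 11.36, 10.53 and 10.65 against 11.52, 11.57 and 11.62. The differences were -0.69 ± 0.16, 1.62-fold lower (limma adjusted p 0.00466), and -0.72 ± 0.17, 1.65-fold lower (0.00447). All 6 calls held when any 1 array was left out. Once the 4 high arrays were left out, 0 of 7 members and 0.00666% of probe sets were called, with Cxcl16 at -0.67 ± 0.25 for both probe sets (limma adjusted p 0.327 and 0.33) and Cxcl10 at -2.86 ± 1.26 (0.381). The Cxcl16 differences were thus nearly as large without those arrays, and Cxcl9, at -1.45 ± 0.34, was not. The dendritic cell marker mean was 7.49 to 7.58 in unstimulated BC-R3 and 7.64 to 7.89 in unstimulated B6, and the stromal marker mean 7.67 to 7.95 and 7.91 to 8.80; their part in these differences was not tested.

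In unstimulated CB-R1 minus C3Bir, the 2 probe sets of Cxcl16 were lower and no other member was called, while 0.586% of probe sets were called and 0.171% were lower. By 1418718_at Cxcl16 read 11.26, 11.26 and 11.80 in CB-R1, against 12.11, 12.37 and 12.19 in C3Bir. By 1449195_s_at it read 10.52, 10.53 and 10.87 in CB-R1, against 11.17, 11.56 and 11.39 in C3Bir. The groups do not overlap in either, which held for 18.9% of all probe sets. The differences were -0.78 ± 0.16, 1.72-fold lower (limma adjusted p 0.0322), and -0.73 ± 0.17, 1.66-fold lower (0.0474). These calls were lost when 1 array was left out in 4 and 15 of 24 cases, and without the 4 high arrays the differences were -0.67 ± 0.25 and -0.53 ± 0.25 (limma adjusted p 1 for both). Cxcl10 differed by -0.87 ± 0.84 and Cxcl9 by -0.17 ± 0.38. The neutrophil marker mean was 12.65 to 12.87 in unstimulated CB-R1 and 11.78 to 12.47 in unstimulated C3Bir, and the mean of 11 stromal cell markers was 8.34 to 8.65 in CB-R1 and 7.67 to 8.03 in C3Bir. The part of either in the Cxcl16 difference was not tested.

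With flagellin, limma called 0 of 7 members for C3Bir minus B6, BC-R3 minus B6 and CB-R1 minus C3Bir, at background rates of 5.68%, 0.0222% and 0.0555%. Cxcl10 was at -1.50 ± 0.84 for C3Bir minus B6, with an interval from -3.25 to 0.24 (limma adjusted p 0.37). BC-R3 and B6 lay close together under flagellin, with a Cxcl10 difference of 0.02 ± 0.84 and a Cxcl9 difference of -0.15 ± 0.38.

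The 4 strains also form a cross of genetic background and Cdcs1 allele, which allows each to be averaged over the other. Without flagellin, the C3Bir background (C3Bir and CB-R1) minus the B6 background (B6 and BC-R3) gave 2 of 7 members lower, while 14.2% of probe sets were called and 6.37% were lower. Cxcl10 ranged from 7.83 to 9.79 with a median of 9.05 over the 6 arrays of the C3Bir background, against 8.70 to 14.10 with a median of 12.84 over the 6 of the B6 background. Its difference was -3.09 ± 0.59, 8.52-fold lower (limma adjusted p 0.00103). Cxcl9 differed by -1.40 ± 0.27, 2.64-fold lower (0.00101). The pairs behind these averages were not alike: C3Bir minus B6 gave -2.73 for Cxcl9 and -4.43 for Cxcl10, while CB-R1 minus BC-R3 gave -0.07 and -1.75, as differences of group means with no test of their own. Without the 4 high arrays Cxcl10 stood at -3.05 ± 0.89 with a limma adjusted p of 0.0504, so its size changed little, and Cxcl9 was at -0.72 ± 0.24 (0.0861).

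Under flagellin, Cxcl11 by 1419697_at was the member with separate backgrounds. It ranged from 6.54 to 7.34 with a median of 7.13 on the 6 arrays of the C3Bir background, and from 6.25 to 6.53 with a median of 6.40 on the 6 of the B6 background. The groups do not overlap, which held for 7.47% of probe sets. The difference of 0.64 ± 0.25 did not pass the test with all arrays (limma adjusted p 0.118, 0 of 7 members called, 12% of probe sets called). It passed without the 4 high arrays, none of which is a flagellin array, with 0.64 ± 0.16 and an adjusted p of 0.0111 (limma). Sequence variants under a probe and a difference in RNA cannot be told apart for such strain differences. The second Cxcl11 probe set, below the lower quartile on every array, differed by 0.09 ± 0.06 (limma adjusted p 0.455).

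For the Cdcs1 allele without flagellin, C3Bir and BC-R3 minus B6 and CB-R1, 3 of 7 members were lower, while 4.28% of probe sets were called and 1.55% were lower. Cxcl9 differed by -1.33 ± 0.27 (limma adjusted p 0.0167), its dim probe set by -0.29 ± 0.08 (0.0382) and Cxcl11 by -0.94 ± 0.25 (0.0423). The 2 pairs that make up this average did not move alike. BC-R3 minus B6 gave -2.83 for Cxcl9, while CB-R1 minus C3Bir, in which the allele runs the other way, gave -0.17. Cxcl16 (1418718_at) gave -0.69 and -0.78 in these pairs, lower with either allele brought in. Its allele difference was 0.04 ± 0.11, not called. None of the members was called without the 4 high arrays, with Cxcl9 at -0.65 ± 0.24 (limma adjusted p 0.688). With flagellin 0 of 7 members were called for the allele, at 0.0511% of probe sets.

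Other genes of the pathways that act on these chemokines were read from 4 lists with 73 measured genes, each by 1 probe set. In the flagellin change of B6, where 9.49% of the 18193 genes were lower and 12.9% higher, 21 of 23 interferon-inducible genes were lower and none higher. The median of that list was -1.85, against -0.02 over all genes, and it was -1.25 without the 4 high arrays. Mx1 and Oasl1 fell by 3.49 ± 0.77 (limma adjusted p 0.00551) and 3.38 ± 0.71 (0.00471) on the log2 scale. Over the 23 genes the mean per array was 8.78 to 10.40 in flagellin-treated B6 and 10.73 to 11.70 in unstimulated B6, so this list separated the B6 groups on every array. Over the other 6 groups it lay between 8.90 and 10.55.

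Of 20 interferon signalling genes, 9 were lower with flagellin in B6 and none higher, with a median of -0.44 that was -0.17 without the 4 high arrays. Irf1, an interferon-induced transcription factor that is known to act on the Cxcl9 and Cxcl10 promoters, fell by 1.45 ± 0.30 (limma adjusted p 0.0046). Socs1, a feedback inhibitor of cytokine signalling, fell by 1.85 ± 0.33 (0.00266), and the change of Irf7, a driver of type I interferon, was -1.75 ± 0.47 (0.0136). The interferon genes themselves gave little signal: Ifng was below the lower quartile on all 24 arrays (0.08 ± 0.09, adjusted p 0.524 by limma). Ifnb1 averaged 6.41 ± 0.06 in flagellin-treated B6 and 6.78 ± 0.33 in unstimulated B6 (SD, n = 3), a change of -0.37 ± 0.11 (limma adjusted p 0.0236). Once the 4 high arrays were left out, limma called 0 of the 18193 genes for the B6 flagellin change, so every call in these lists was lost. Irf1 was then at -0.97 ± 0.42, Socs1 at -0.69 ± 0.30, Irf7 at -1.24 ± 0.62, Ifnb1 at 0.00 ± 0.10, Mx1 at -2.59 ± 1.14 and Oasl1 at -2.67 ± 1.07, on the log2 scale.

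Among 20 NF-kB and inflammatory genes, 13 were lower with flagellin in B6 and none higher, with a median of -1.41 that was -0.39 without the 4 high arrays. Those arrays were set apart by this same list, so its smaller medians without them, here and below, are no separate check. Il6 fell by 4.87 ± 0.99 (limma adjusted p 0.00421) and Il12b, a subunit of interleukin-12, by 4.08 ± 0.95 (0.0073). Without those arrays Il6 was at -0.62 ± 0.25 and Il12b at -1.23 ± 0.62, neither called. In the other 3 strains none of the 4 lists had a gene called with flagellin.

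In unstimulated BC-R3 minus B6, where 12.7% of genes were lower, all 20 NF-kB and inflammatory genes and 21 of 23 interferon-inducible genes were lower, with medians of -2.04 and -1.76. Without the 4 high arrays these medians were -0.92 and -1.07. In unstimulated C3Bir minus B6, where 6.3% of genes were lower, the counts were 7 of 20 and 13 of 23, with medians of -1.06 and -1.37. Leaving out the 4 high arrays gave medians of -1.14 and -1.0, and none of these genes was called in BC-R3 minus B6. In C3Bir minus B6 only Ccl3, a chemokine named here after its value was seen, was still called among both lists. In unstimulated CB-R1 minus C3Bir, where Cxcl16 was the member called and 0.225% of genes were lower, 3 of 20 NF-kB and inflammatory genes were lower and 0 of 23 interferon-inducible genes were. The 3 were Cxcl2, a neutrophil chemokine, at -3.75 ± 0.84, Relb, an NF-kB subunit, at -1.17 ± 0.25, and Nfkbia, an NF-kB inhibitor, at -0.95 ± 0.23 (limma adjusted p 0.0381, 0.0381 and 0.0495). The median of that list was -1.39, and -0.13 without the 4 high arrays, when none of the 3 was called and the differences were -1.79 ± 1.05, -0.61 ± 0.34 and -0.37 ± 0.29.

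The receptors and the shedding enzymes were read in the same way. Cxcr3 averaged 7.33 ± 0.23 in flagellin-treated B6 and 7.37 ± 0.13 in unstimulated B6 (SD, n = 3), a change of -0.03 ± 0.12 (limma adjusted p 0.871). Cxcr6, the CXCL16 receptor, was dim at 5.32 ± 0.16 with flagellin and 5.59 ± 0.13 without in B6 (SD, n = 3; -0.27 ± 0.09, limma adjusted p 0.0299). Adam10, which sheds CXCL16, averaged 11.23 ± 0.26 in flagellin-treated B6 and 10.64 ± 0.38 in unstimulated B6 (SD, n = 3). That rise of 0.60 ± 0.16 passed the test (limma adjusted p 0.0141). Unstimulated BC-R3 also had more Adam10 than unstimulated B6, by 0.89 ± 0.16 (limma adjusted p 0.000972). Any link of Adam10 to the Cxcl16 signal was not tested. Neither Adam10 call held without the 4 high arrays, with 0.16 ± 0.16 for flagellin in B6 (adjusted p 0.822) and 0.46 ± 0.16 for BC-R3 minus B6 (0.303), both from limma, and Cxcr6 was at -0.17 ± 0.12 (0.767). Adam17 was lower in unstimulated CB-R1, at 11.14 ± 0.08, than in unstimulated C3Bir, at 11.79 ± 0.19 (SD, n = 3; -0.65 ± 0.14, limma adjusted p 0.0345), and -0.44 ± 0.20 without the 4 high arrays (limma adjusted p 1).

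The members varied together to unequal degrees from array to array. Correlations of log2 values are given as a description over 24 arrays that share strains and treatments, and they carry no test.

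**Figure D4:**
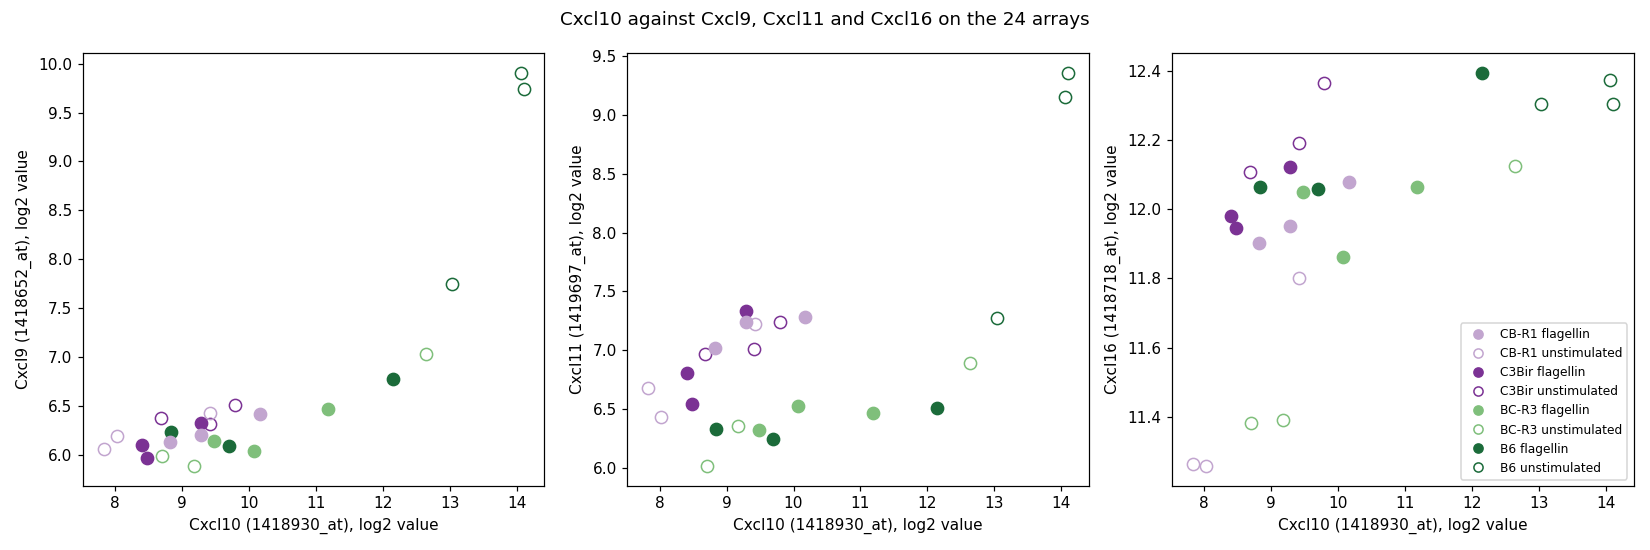
Cxcl10 (x axis, log2 value) against Cxcl9, Cxcl11 and Cxcl16 (y axes, log2 value, from left to right) on the 24 arrays; filled points are flagellin-treated, open points unstimulated, coloured by strain. Cxcl9 and Cxcl11 are highest at the 2 unstimulated B6 arrays with the highest Cxcl10, and Cxcl11 is spread out at low Cxcl10.

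Cxcl9 and Cxcl10 had a correlation of 0.859, and 0.845 over the 20 arrays without the 4 high ones. Cxcl9 and Cxcl11 had 0.894 over 24 arrays but 0.461 over 20, so the likeness of this pair rests largely on the high arrays. Cxcl10 and Cxcl11 had 0.667 and 0.219. Cxcl10 and Cxcl16 (1418718_at) had 0.642 and 0.640. For deviations from the group means over 24 arrays, that pair had 0.873 and Cxcl9 and Cxcl11 had 0.904. Cxcl9 and Cxcl10 had 0.667 in this measure, and Cxcl10 and Cxcl11 had 0.559. The 2 Cxcl16 probe sets correlated at 0.979, while the 2 Cxcl9 probe sets had 0.935 over 24 arrays and 0.610 over 20.

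Among the other genes, the 5 with the most similar pattern to Cxcl9 over the 24 arrays were Batf2 (0.990), Socs1 (0.986), Slc25a22 (0.983), Nod1 (0.981) and Mlkl (0.981). Batf2 also ranked first for Cxcl9 over the 20 arrays, at 0.950. For Cxcl10 the 5 were Peli1 (0.974), Pnp (0.972), Myd88 (0.965), Ccdc86 (0.962) and Dcp2 (0.961), with Peli1 first over 20 arrays as well, at 0.972. For deviations from the group means, in contrast, Cxcl10 was most like Ifit1 (0.990) and Rsad2 (0.985), which are interferon-inducible genes. Over the 24 arrays Cxcl11 was most like Mx2 (0.959), Adar (0.956), Agrn (0.956), Ppm1k (0.950) and Trim26 (0.938). Over the 20 arrays Mx2 ranked 4 for Cxcl11, at 0.862, Agrn ranked 37, at 0.783, and Trim26 ranked 59, at 0.759. Cxcl16 had Gpr18 (0.914), Marcksl1 (0.911), Ikbke (0.911), Vasp (0.901) and Cpd (0.893) over the 24 arrays. Over the 20 arrays Gpr18 ranked 3 for Cxcl16, at 0.898, and Cpd ranked 12, at 0.871. No gene stood among the 5 of more than 1 member over the 24 arrays.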

How the data were processed

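Total RNA of 24 cultures was measured on Affymetrix expression arrays. The values are log2 signals per probe set, deposited as a single table with 45037 probe sets, of which 4 had no values and 45033 were used. The authors' method of summarising and normalizing the log2 signals was not given in the sources used here. Values were used as deposited, with no filter, and no pair of arrays held identical values. Groups came from the sample titles. Gene symbols came from the platform's probe annotation: 34944 probe sets had 1 symbol, 931 several and 9158 none. Levels of different probe sets were not compared.

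A means model of the 8 groups was fitted to all arrays with limma 3.58.1 in R 4.3.3 (16 residual degrees of freedom, 4.02 prior degrees of freedom from eBayes). The 17 contrasts were tested two-sided, with Benjamini-Hochberg adjustment over all probe sets, and called at an adjusted p under 0.05. The steps were tested on simulated data. Same-numbered arrays deviated together (every correlation above 0.1) in C3Bir and CB-R1 but not in B6 or BC-R3. The main fit did not pair arrays by number in any strain, and replicate blocks were run only as alternatives. For gene lists, the probe set of highest mean stood for each of 18193 genes. Of 78 list genes 73 were measured, and of 61 marker genes 53. The members and lists were chosen with earlier results of these data known. Named were all members, the 5 most correlated genes of each, up to 4 called genes per list with the largest change, and Ifng, Ifnb1, Irf1, Irf7, Cxcr3, Cxcr6, Adam10 and Adam17. Promoters for 2 of the 4 genes came from RefSeq's table of GRCm38.p6. Tables were made with Python 3.11.15 and pandas 2.3.3.

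Alternatives were median centring, quantile normalization, a filter on dim probe sets, 1 probe set per gene, trended and robust eBayes, fitting only the arrays compared, replicate blocks, a 2-fold threshold, leaving out each array in turn, leaving out the 4 high arrays, and leaving out unstimulated array 1 of C3Bir, BC-R3 and B6.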

Additional observations from a re-analysis of the deposited data

Results flagged for a closer look

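For 3 probe sets the flagellin change differed between BC-R3 and B6 by a test of the difference itself, an interaction in the limma fit. The BC-R3 change minus the B6 change was 2.68 for Cxcl9 (1418652_at, adjusted p 0.0151), 0.56 for the dim Cxcl9 probe set 1456907_at (adjusted p 0.0357) and 2.25 for Cxcl11 (1419697_at, adjusted p 0.0205). In BC-R3 the changes were -0.08, -0.02 and 0.02, and in B6 they were -2.77, -0.57 and -2.23. Without the 4 high arrays the differences were 1.30, 0.21 and 0.93, with adjusted p of 0.448, 0.63 and 0.498 from limma. The part of those arrays' high inflammatory means in the difference was not tested. Leaving out each array in turn gave 0 to 6 called members for this difference, with no share of all probe sets counted beside them. The count was 1 without flagellin-treated BC-R3 array 3, 6 without unstimulated BC-R3 array 1, 1 and 0 without its arrays 2 and 3, and 0 and 1 without unstimulated B6 arrays 2 and 3.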

How the results depend on the processing

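Against the fit of all 24 arrays, the counts of called members (of 7 probe sets) depended mostly on which arrays were fitted, and no called value changed sign under any alternative run. Without the 4 high arrays the counts were 0 for the B6 flagellin change, C3Bir minus B6, BC-R3 minus B6, CB-R1 minus C3Bir, the background and the Cdcs1 allele (each unstimulated) and the BC-R3 minus B6 difference of flagellin changes, and 1 for the background with flagellin. A fit of only the compared arrays gave 0 for the B6 flagellin change, BC-R3 minus B6, CB-R1 minus C3Bir, the allele (each unstimulated) and the BC-R3 minus B6 difference, 2 for unstimulated C3Bir minus B6 and 1 for the background with flagellin. Without the 3 first unstimulated arrays they were 2 for the BC-R3 flagellin change, 1 for the background with flagellin, 4 for it unstimulated, and 3, 7 and 2 for the differences of flagellin change C3Bir minus B6, BC-R3 minus B6 and CB-R1 minus C3Bir. A 2-fold threshold gave 3 for the B6 flagellin change, 3 for BC-R3 minus B6, 0 for CB-R1 minus C3Bir and 1 for the allele (each unstimulated). With 1 probe set per gene, of 4, they were 3 for the B6 flagellin change and 1 for unstimulated CB-R1 minus C3Bir, which also had 1 with median centring and 1 with a random replicate block by strain and number (consensus correlation 0.0837). Leaving out each array in turn gave 3 to 5 for the B6 flagellin change, 0 to 2 for that of BC-R3, 3 to 4 for unstimulated C3Bir minus B6, 6 to 6 for BC-R3 minus B6, 0 to 2 for CB-R1 minus C3Bir, 0 to 1 and 2 to 4 for the background with flagellin and without, 0 to 4 for the allele unstimulated, and 0 to 3 and 0 to 6 for the differences C3Bir minus B6 and BC-R3 minus B6. Shares of all probe sets called were counted only in the main fit, with 1 probe set per gene and without the 4 high arrays. Counts under the other settings have no such share beside them, so they cannot be told from a shift of many probe sets. The cause of these shifts was not tested. Array numbers are not tied to mice in the labels. Same-numbered arrays correlated at 0.29 to 0.45 in C3Bir and 0.22 to 0.50 in CB-R1, each best with its own number, but at -0.29 to 0.12 in B6 and -0.44 to 0.24 in BC-R3. The fixed replicate block by strain and number called 0 members for flagellin in C3Bir and CB-R1, as without it (CB-R1 Cxcl16 0.54 ± 0.16, limma adjusted p 1), so it changed no call in the strains where the numbers pair.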
